A study of Mus musculus with 12 samples.

Results

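The 10 genes described here are 3 genes of STAT transcription factors (Stat5a, Stat5b and Stat3) and 7 genes that STAT5 is known to switch on: Cish, Socs1, Socs2 and Socs3, whose products restrain the pathway, and the kinase genes Pim1, Pim2 and Pim3. They were listed by name, as genes read as an output of the BCR-ABL1 kinase, and the rule uses no measured value. They are 10 of the 46103 genes in the deposited files, and 9 of them are among the 10072 genes that entered the tests, for which 1 RPKM or more was required in 3 or more libraries. Socs1 lay below that limit and was examined on its own. RPKM divides the reads on a gene by its length and by the total reads of the library, so levels of different genes can be set side by side.

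RNA was sequenced from 12 libraries of 100 sorted cells each, taken from bone marrow and spleen of mice (strain C57BL/6) with a disease like chronic myeloid leukemia (CML). All 4 groups carried the same changes. Bone marrow cells of 5FU-treated G0M mice were transduced with a retrovirus for human BCR-ABL1 and GFP and given to lethally irradiated wild-type recipients, so a recipient could also hold host cells. G0M is a fluorescent fusion of mVenus with a p27 mutant (p27K-), expressed from the Rosa26 allele after recombination by Vav1-Cre, a Cre of blood cells, and it marks cells in the G0 phase. All libraries were sorted as BCR-ABL1+ KSL cells (lineage marker-negative, Sca1+ and c-Kit+) with CD27. DP cells were G0M+CD27+ and SP cells G0M-CD27+, both from vehicle-treated mice. IMDP and IMSP cells were the same populations after treatment with imatinib, which blocks the kinase activity of BCR-ABL1. The drug was given to the mice by mouth at 40 mg/kg daily from day 10 after transplantation. Each group held 3 libraries, and the labels do not say whether these came from separate mice, so p values measure the spread between libraries, which may be technical. The comparisons ask how these genes differed between G0M+ and G0M- cells, and between imatinib- and vehicle-treated cells.

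STAT proteins wait in the cytoplasm until a JAK kinase at a cytokine receptor, or an oncogenic kinase such as BCR-ABL1, phosphorylates them on tyrosine. They then pair, enter the nucleus and bind DNA at short palindromic elements. Among the genes STAT5 switches on are its own inhibitors: CIS and the SOCS proteins bind phosphorylated receptors or JAK kinases, block signaling and direct the bound proteins to degradation, which closes a feedback loop. PIM kinases are regulated mainly by the amount of protein made, and they promote survival, translation and growth of blood cells, also in CML, where STAT5 is a well-known target of BCR-ABL1.

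The sequence that STAT dimers are known to bind was searched in the promoters, because 7 of the 10 genes were chosen as STAT5 targets. The windows ran from 250 bases before to 50 bases after each start in RefSeq (GRCm38.p6), and the motif was TTCNNNGAA, which reads the same on both strands. Of the 10 genes, 9 had a window (none was found for Socs2), and the motif stood in windows of 2, Cish and Socs3. It stood in 8.3% of all 32851 windows, and 2 or more copies stood in 0.457%. The 2 stretches that hold it are shown with the motifs in capitals, 5′ to 3′ along the strand of the gene.
Cish, chr9:107296654-107296683, plus strand: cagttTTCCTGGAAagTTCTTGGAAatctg
Socs3, chr11:117969501-117969530, minus strand: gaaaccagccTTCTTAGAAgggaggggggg
The Cish stretch holds 2 copies, which begin 0 and 11 bases after the RefSeq start. In GENCODE M21 (GRCm38) it lies in the 5′ untranslated part of the first exon of a longer Cish transcript, and a transcript of the pseudogene Gm17040 spans it on the other strand. The Socs3 copy begins at position -154 relative to the RefSeq start, inside an intron of a Socs3 transcript that starts further upstream. A match of letters is a description of the sequence, and binding was not measured.

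The total behind the RPKM values came to between 11.4 and 20.6 M reads per library, of which 25.9% to 37.1% fell on the listed genes. Kit and Cd27, which the sort requires, were above 10 RPKM in all 12 libraries, and Ly6a, which encodes Sca1, was detected in all. The library numbers in the descriptions place a G0M+ library next to a G0M- library of the same treatment in 6 pairs, and deviations from the group means ran together in each of these pairs (r between 0.43 and 0.65 over the tested genes). The population comparisons of the tested members are therefore given also with these pairs as a block, by value or by count. Those of other genes are given so where the block changes a count averaged over treatments. The 6 imatinib libraries have numbers 1 to 6 and the 6 vehicle libraries 7 to 12, so treatment and library number cannot be told apart. The median of all tested genes was lower by 0.25 (log2) in IMDP than in IMSP libraries, by 0.17 in IMDP than in DP libraries and by 0.13 in G0M+ than in G0M- libraries. Log2 fold changes are on the scale of log2(RPKM + 0.1).

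Pim1 had the highest level of the 10 genes in all 12 libraries, at 1.85 to 3.77 times the next of them, and its median of 47.6 RPKM exceeded that of 97% of the tested genes. Stat3 and Stat5a followed, with medians of 15.3 and 12.3 RPKM, and Stat5b had a median of 6.83 RPKM. Among the targets the medians were 8.87 RPKM for Cish, 7.39 for Pim2, 4.57 for Pim3, 3.88 for Socs3, 3.73 for Socs2 and 0.625 for Socs1. Neighbours in this order overlapped, except that Pim1 was above Stat3 and Socs2 above Socs1 in 12 of 12 libraries. Stat5a was above Stat5b in 12 of 12 libraries, by 1.33 to 2.17 times. The order of variability was different. Over the 12 libraries the highest value was 18.9 times the lowest for Cish, 12.4 times for Socs3, 8.52 times for Socs2 and 4.96 times for Pim2, but 1.56 to 1.65 times for the 3 STAT genes and 2.60 times for Pim1.

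**Figure D1:**
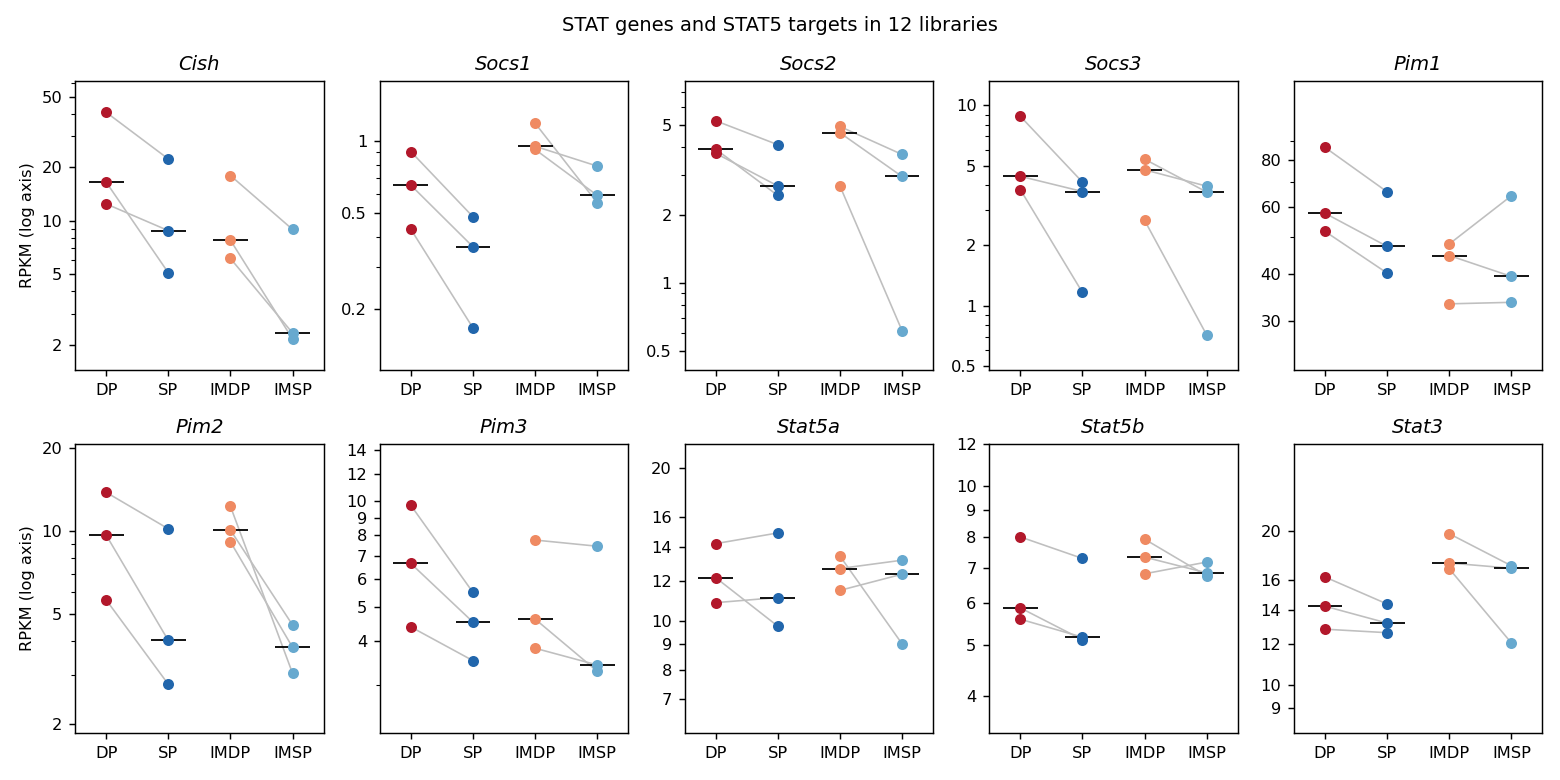
RPKM (log axis) of the 10 genes in the 12 libraries, with 3 libraries in each of the groups DP, SP, IMDP and IMSP. Each point is a library, black bars are group medians, and grey lines join libraries with neighbouring numbers. Cish and Pim2 were higher in the G0M+ library in 6 of 6 pairs, while the Stat5a lines cross in both directions.

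Cish encodes CIS, which binds phosphorylated cytokine receptors and was the first known member of the SOCS family. In DP libraries 1, 2 and 3 it stood at 16.5, 40.8 and 12.4 RPKM, and in SP libraries at 8.80, 5.09 and 22.3 RPKM. In IMDP libraries it stood at 6.13, 18.0 and 7.77 RPKM, and in IMSP libraries at 2.33, 8.93 and 2.16 RPKM. DP2, SP3, IMDP2 and IMSP2 stood far above the other libraries of their groups, and the G0M+ and G0M- ranges overlapped in both treatments through SP3 and IMSP2. Within the pairs of neighbouring numbers, Cish was higher in the G0M+ library in 6 of 6, by 1.41 to 3.60 times. Log2 fold changes were 1.01 ± 0.67 (SE) in DP against SP cells and 1.39 ± 0.67 in IMDP against IMSP cells. Neither passed the threshold (limma, Benjamini-Hochberg adjusted p = 0.536 and 0.141), and both did with the pairs as a block (adjusted p = 0.0234 and 0.00129). Averaged over treatments, Cish was 2.30 times as high in G0M+ as in G0M- cells (log2 fold change 1.20 ± 0.47, adjusted p = 0.0761, and 0.000436 with the block). It passed without the block when IMSP2 or SP3 was left out (adjusted p = 0.0242 and 0.0348), and the fold change ranged from 0.95 to 1.52 over the libraries left out.

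Socs1, which encodes a direct inhibitor of JAK kinases, rested on 3 to 27 reads per library, so its values are coarse. It stood at 0.905, 0.429 and 0.656 RPKM in DP libraries 1, 2 and 3, at 0.363, 0.484 and 0.166 RPKM in SP, at 0.924, 0.953 and 1.19 RPKM in IMDP, and at 0.595, 0.788 and 0.553 RPKM in IMSP libraries. All IMDP values were above all IMSP values, as for 6.21% of all tested genes, and the DP and SP ranges overlapped, by DP2 and SP2. The G0M+ library was higher in 6 of 6 pairs, by 1.21 to 2.58 times. The mean log2 difference between G0M+ and G0M- libraries was 0.71 (exact two-sided permutation test within treatments, p = 0.01, with 0.005 the smallest p that its 400 relabellings allow), and it ranged from 0.55 to 0.83 over the libraries left out. With the limit on low values at 0.1 RPKM, which admits Socs1 to the test across all genes, it did not pass (limma adjusted p = 0.0589).

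Socs2, an inhibitor known for limiting growth hormone signaling through STAT5, was lower on average in IMSP cells, where it stood at 2.96, 3.71 and 0.614 RPKM in libraries 1, 2 and 3. In IMDP libraries it stood at 4.63, 4.94 and 2.69 RPKM, in DP at 3.76, 5.23 and 3.92 RPKM, and in SP at 2.44, 2.69 and 4.10 RPKM. The ranges overlapped in both treatments, since IMDP3 was lower than IMSP1 and SP3 higher than DP1, and IMSP3 had by far the lowest value of all. The G0M+ library was higher in 6 of 6 pairs, by 1.28 to 4.39 times. Averaged over treatments the log2 fold change was 0.75 ± 0.36 (limma adjusted p = 0.135). It passed with the pairs as a block (0.00982), as did IMDP against IMSP (log2 fold change 1.00 ± 0.51, adjusted p = 0.0131 with the block and 0.162 without), and the averaged difference passed without the block when IMSP2 was left out (0.0498). Over the libraries left out the log2 fold change ranged from 0.37 to 0.97 averaged over treatments and from 0.25 to 1.45 in IMDP against IMSP.

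Socs3, the inhibitor best known for limiting STAT3 signaling from IL-6 type receptors, showed the same direction with wider scatter. It stood at 3.80, 8.83 and 4.43 RPKM in DP and at 3.72, 1.16 and 4.14 RPKM in SP libraries 1, 2 and 3. In IMDP libraries the values were 2.67, 5.39 and 4.77 RPKM, and in IMSP libraries 0.713, 3.69 and 3.95 RPKM. Here SP2 and IMSP1 stood apart as the low libraries of their groups, and the ranges overlapped. The G0M+ library was higher in 6 of 6 pairs, by 1.19 to 3.74 times. For population averaged over treatments it gave a log2 fold change of 0.92 ± 0.44 (limma adjusted p = 0.135, and 0.00806 with the block), from 0.54 to 1.12 over the libraries left out. In IMDP against IMSP cells the log2 fold change was 0.86, from 0.10 to 1.26 over the libraries left out.

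Pim2, a constitutively active serine and threonine kinase that supports survival and translation, was the member that passed the test between populations. In IMDP libraries 1, 2 and 3 it stood at 9.14, 10.1 and 12.3 RPKM, and in IMSP libraries at 3.79, 4.57 and 3.05 RPKM. In DP libraries it stood at 9.67, 13.8 and 5.63 RPKM, and in SP libraries at 2.79, 4.01 and 10.2 RPKM. The lowest IMDP library was above the highest IMSP library, as for 6.21% of all tested genes, whereas DP and SP overlapped through DP3 and SP3. Pim2 was 2.73 times as high in IMDP as in IMSP cells (log2 fold change 1.45 ± 0.42, limma adjusted p = 0.0259). The difference missed the threshold without IMDP2 (0.0704), IMDP3 (0.0787), IMSP1 (0.0792) or IMSP3 (0.0735), with log2 fold changes between 1.30 and 1.47 in these fits. Over all libraries left out the log2 fold change ranged from 1.30 to 1.59. In DP against SP cells the log2 fold change was 0.89 ± 0.42 (adjusted p = 0.388, and 0.0256 with the block). Averaged over treatments it was 1.17 ± 0.29 (adjusted p = 0.0145, and 0.000288 with the block), it passed whichever library was left out (0.97 to 1.43), and the G0M+ library was higher in 6 of 6 pairs, by 1.36 to 4.03 times.

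Pim1, the founding PIM kinase and a classic early target of STAT5, did not follow Pim2. It stood at 51.8, 86.5 and 57.8 RPKM in DP and at 47.2, 40.1 and 65.9 RPKM in SP libraries 1, 2 and 3. In IMDP libraries it stood at 44.7, 33.2 and 47.9 RPKM, and in IMSP libraries at 39.3, 33.6 and 64.3 RPKM. The G0M+ library was higher in 4 of 6 pairs, at 0.745 to 1.31 times the G0M- library. The 2 exceptions were pairs of imatinib libraries, IMDP2 with IMSP2 and IMDP3 with IMSP3. The log2 fold change averaged over treatments was 0.13 ± 0.20, with a 95% interval from -0.29 to 0.56 (limma adjusted p = 0.632). In IMDP against IMSP cells it was -0.08, and 0.19 when the libraries were scaled to the same median, so its sign there depended on the scaling.

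Pim3, the third kinase of the family, was higher in the G0M+ library in 6 of 6 pairs, by only 1.04 to 1.77 times. Its levels lay between 4.38 and 9.75 RPKM in DP, 3.51 and 5.50 in SP, 3.81 and 7.76 in IMDP, and 3.27 and 7.45 RPKM in IMSP libraries. All of these ranges overlapped. The log2 fold change averaged over treatments was 0.39 ± 0.26 (limma adjusted p = 0.274, and 0.0109 with the block), and that of DP against SP cells was 0.56 ± 0.37 (0.543, and 0.0401 with the block).

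The STAT genes varied little between libraries. Stat5a, which with Stat5b encodes the STAT5 proteins, ranged between 10.9 and 14.2 RPKM in DP, 9.76 and 14.9 in SP, 11.5 and 13.4 in IMDP, and 9.01 and 13.2 RPKM in IMSP libraries. Stat5b ranged between 5.60 and 8.01 RPKM in DP, 5.12 and 7.29 in SP, 6.82 and 7.93 in IMDP, and 6.76 and 7.18 RPKM in IMSP libraries. Their population differences were small, with log2 fold changes of 0.10 (95% interval -0.19 to 0.40) and 0.12 (-0.15 to 0.38) averaged over treatments. Neither gene passed (limma adjusted p = 0.582 and 0.498).

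Stat3, which transmits signals of the IL-6 family, was higher in the G0M+ library in 6 of 6 pairs, but by only 1.02 to 1.40 times. It stood at 14.2, 12.8 and 16.2 RPKM in DP, at 14.4, 13.2 and 12.6 RPKM in SP, at 16.9, 17.3 and 19.7 RPKM in IMDP and at 12.1, 16.9 and 17.1 RPKM in IMSP libraries 1, 2 and 3. All IMDP values were above all DP values, as for 4.58% of all tested genes, while IMSP1 fell below the SP range. The population difference averaged over treatments was 0.17 ± 0.11 (log2 fold change, limma adjusted p = 0.263). Stat5a and Stat3 run toward each other on chromosome 11 (100859351 to 100885169 and 100885098 to 100939540, GRCm38) and share 72 bases at their 3′ ends, and no strand setting of the read counting was given. Reads from antisense transcripts annotated at Cish and Pim1 could not be told apart from those of the genes for the same reason.

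The calls were then counted over the members. In DP against SP cells 0 of the 9 tested members passed limma's threshold (0 at an unadjusted p under 0.05, and 0 with voom on recovered reads), where 2.26% of all tested genes passed. In IMDP against IMSP cells 1 of 9 passed, Pim2, where 25.6% of all tested genes passed and 2.37% were higher. Averaged over treatments 1 of 9 passed, again Pim2, against 26.3% of all tested genes, with 5.32% higher and 21% lower. Scaled to the same median, the share of all calls that were higher was 47.5% in place of 20.2%, and in IMDP against IMSP cells 40.8% in place of 9.26%, while the members called were the same in number. The median log2 fold change of the 9 members averaged over treatments was 0.39, beside -0.13 for all tested genes.

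With the pairs of neighbouring numbers as a block, 3 of 9 members were higher in DP than SP cells (Cish, Pim2 and Pim3), where 4.17% of all tested genes were higher. In IMDP against IMSP cells 4 of 9 were higher (Cish, Socs2, Socs3 and Pim2), where 8.22% of all tested genes were. Averaged over treatments 5 of 9 were higher (Cish, Socs2, Socs3, Pim2 and Pim3), beside 13.4% of all tested genes, and 0 of 9 were lower, beside 33.4%. Pim1 and the 3 STAT genes did not pass in any of these. Without any model, 7 of the 10 genes stood higher on the G0M+ side in every one of the 6 pairs, as did 11.3% of the tested genes. These 7 were Cish, the 3 SOCS genes, Pim2, Pim3 and Stat3.

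**Figure D2:**
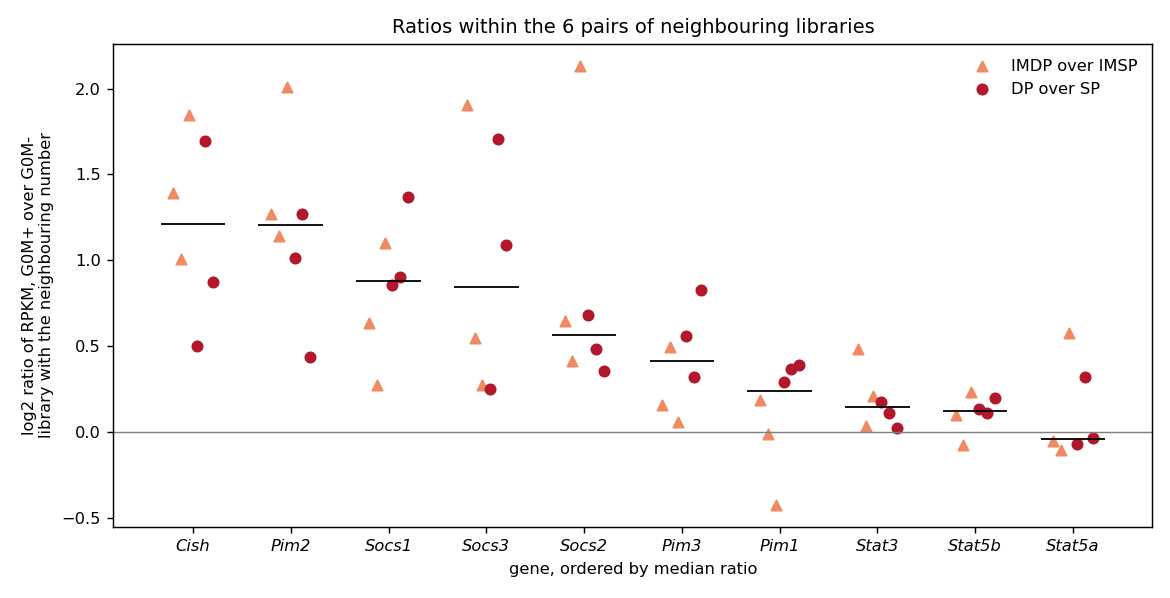
Log2 ratio of RPKM, G0M+ over G0M- library, within the 6 pairs of neighbouring library numbers for each of the 10 genes. Circles are DP over SP, triangles IMDP over IMSP, and bars the median of the 6. The median ratio fell from 2.32 for Cish and 2.31 for Pim2 to values near 1 for the STAT genes, and only Pim1, Stat5b and Stat5a had points below 0.

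Markers of other cell types moved with G0M. Of 6 markers of cycling cells, 4 were lower in G0M+ cells averaged over treatments (limma, adjusted p under 0.05), or 5 with the pairs as a block, and their summed level was 136 to 176 RPKM in DP, 262 to 293 in SP, 80.6 to 141 in IMDP and 280 to 341 RPKM in IMSP libraries. Of 7 tested markers of mast cells and basophils, 4 passed as higher, or 7 with the block. Of these 7, Cma1, Prss34 and Ms4a2 stayed below 1 RPKM in all G0M- libraries and passed the limit on low values through the G0M+ libraries alone, so the limit fixed their direction and the count is no support for one. Fcer1a, at most 0.283 RPKM in SP and 1.21 RPKM in IMSP libraries, passed it largely through the G0M+ libraries. The mast cell and basophil list had sums of 80.1 to 298 RPKM in DP, 20.1 to 21.6 in SP, 25.4 to 197 in IMDP and 16.1 to 26.4 RPKM in IMSP libraries. The mast cell protease gene Cma1 was at 0 in all SP and IMSP libraries. The highest mast cell and basophil sums were those of DP1 and IMDP1. Without DP1 the log2 fold change averaged over treatments was 1.15 for Pim2 and 1.27 for Cish, and without IMDP1 it was 1.22 and 1.36. The sums left were still 83.5 and 80.1 RPKM in DP2 and DP3, and 58.0 and 25.4 RPKM in IMDP2 and IMDP3. Of 5 tested neutrophil and monocyte markers 3 were lower, or 5 with the block, with sums of 69.8 to 1424 RPKM in DP, 387 to 2647 in SP, 75.4 to 291 in IMDP and 520 to 2226 RPKM in IMSP libraries. Single genes were higher in G0M+ cells among 4 erythroid markers (Hbb-bt, with the block also Hba-a1), 3 markers of the sort (Ly6a, with the block also Kit) and 4 macrophage markers (Adgre1). Adgre1 was at most 0.306 RPKM in SP and 1.45 RPKM in IMSP libraries. It entered the test largely through G0M+ libraries, so its call is no support for a direction. The macrophage gene C1qc, at 0 in all SP and IMSP libraries, and the megakaryocyte gene Ppbp, at most 0.162 RPKM there, also passed, but entered the test through G0M+ libraries alone. The 1 tested T and NK cell marker, Nkg7, passed as lower with the block and not without. B cell markers summed to at most 0.175 RPKM. In libraries of pooled cells, fewer cells of a type and less RNA per cell cannot be told apart, and the part of these markers in the results was not tested.

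The treatment comparisons ask how imatinib moved the readout of its target kinase. Cish was lower with imatinib on average in both populations, at 10.6 ± 6.42 RPKM (SD, n = 3) in IMDP beside 23.2 ± 15.3 in DP libraries, and at 4.48 ± 3.86 in IMSP beside 12.1 ± 9.05 RPKM in SP libraries. The ranges overlapped in both, since IMDP2 was above DP1 and DP3 and IMSP2 above SP1 and SP2. Log2 fold changes were -1.09 ± 0.67 in IMDP against DP cells and -1.46 ± 0.67 in IMSP against SP cells, and -1.27 ± 0.47 averaged over populations, with a 95% interval from -2.30 to -0.25 (unadjusted p = 0.0191). It did not pass the threshold across all genes (limma adjusted p = 0.186), and neither did it with any library left out (-1.60 to -0.99, adjusted p from 0.0871 to 0.359).

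Across the members 0 of 9 passed for treatment averaged over populations, where 0.854% of all tested genes passed. An unadjusted p under 0.05 was found for 2 of 9, Cish lower and Stat3 higher, and for 1811 of the 10072 tested genes. In IMDP against DP cells 0 of 9 passed (0.367% of all tested genes), with Pim1 at an unadjusted p of 0.0445, beside 2061 of the 10072 under 0.05. In IMSP against SP cells 0 of 9 members passed and 0% of all tested genes did, while 845 of the 10072 had an unadjusted p under 0.05, Cish among them (0.0487). Tests with voom gave 0 members in each of these 3 comparisons as well. With each neighbouring pair averaged and counted as 1 sample, 0 of 9 members and 0 of the 10072 genes passed for treatment by limma (966 at an unadjusted p under 0.05), in place of 86 genes, and Cish had an adjusted p of 0.525. The median log2 fold change of the members for treatment was -0.18, beside -0.05 for all tested genes.

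Besides Cish, the other 5 tested targets also had estimates below 0 for treatment averaged over populations and none passed, while Stat3 and Stat5b had estimates above 0. Of the 10072 tested genes, only 4275 had an estimate above 0 in this contrast. Pim1 was the gene with all IMDP values below all DP values, at a log2 fold change of -0.62 ± 0.28 (limma adjusted p = 0.233), and 19% of all tested genes had such ranges in that direction. In IMSP against SP cells Pim1 differed by -0.19 ± 0.28 with overlapping ranges. Stat3 was higher with imatinib by 0.25 ± 0.11 averaged over populations (limma adjusted p = 0.271), and its IMDP and DP ranges did not overlap, as was so for 4.58% of all tested genes. Socs1 was the gene whose ranges did not overlap in both comparisons, IMDP above DP and IMSP above SP. Taken singly, such ranges were seen in 4.58% and 11.1% of all tested genes, which do not include Socs1. The share with both was not counted. The gap between DP1 and IMDP1 was narrow, at 0.905 and 0.924 RPKM from 19 and 16 reads.

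The mean log2 difference of Socs1 between imatinib and vehicle libraries was 0.71 (exact two-sided permutation test within populations, p = 0.005, which is the smallest p that the 400 relabellings allow), from 0.55 to 0.84 over the libraries left out. That test counts the libraries of a neighbouring pair as independent. With each pair averaged and counted as 1 sample, the exact permutation p was 0.1, the smallest that 20 relabellings allow. In the test across all genes with the limit at 0.1 RPKM it did not pass (limma adjusted p = 0.171). The estimates for the feedback inhibitors Cish and Socs1 had opposite signs, -1.27 and 0.71, and both genes were higher in the G0M+ library of 6 of 6 pairs. Socs2 and Socs3 differed by -0.36 ± 0.36 and -0.30 ± 0.44 with imatinib, Pim2 by -0.09 ± 0.29, Pim3 by -0.18 ± 0.26, Stat5a by -0.01 ± 0.13 and Stat5b by 0.23 ± 0.12 (log2 fold changes averaged over populations), and none of these passed (adjusted p from 0.359 to 0.970).

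**Figure D3:**
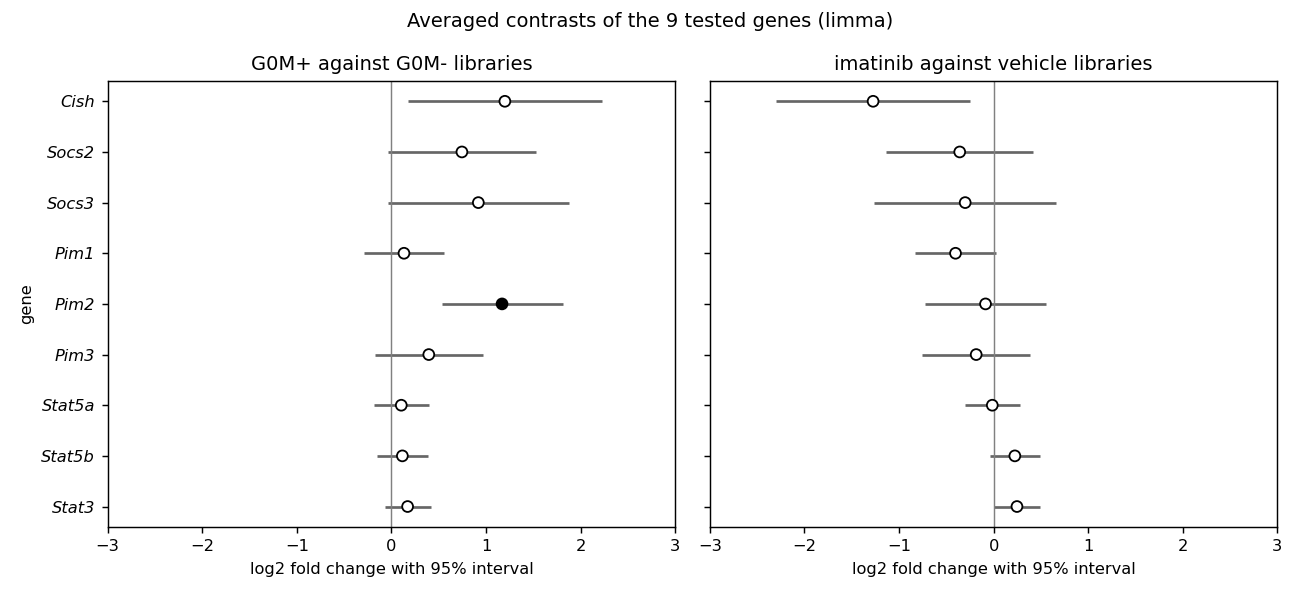
Log2 fold changes (points) with 95% intervals (bars) of the 9 tested genes, G0M+ against G0M- libraries averaged over treatments (left) and imatinib against vehicle libraries averaged over populations (right), from limma without a block. The filled point, Pim2 at 1.17 on the left, passed the threshold. Cish lies at 1.20 and -1.27, and the STAT genes have the shortest bars.

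Whether the population difference changed with imatinib was tested as an interaction. Here 0 of 9 members passed (limma, 0 at an unadjusted p under 0.05, and 0 with voom or with the pairs as a block), and 0% of all tested genes did, with 937 of 10072 at an unadjusted p under 0.05. The intervals were wide. For Cish the interaction was 0.37 with a 95% interval from -1.68 to 2.42, and for Pim2 it was 0.56 with an interval from -0.72 to 1.84, so changes of the population difference of several-fold in either direction lay within the interval of Cish. For Stat5a and Stat5b the intervals ran from -0.52 to 0.65 and from -0.60 to 0.47.

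Within the groups, Cish followed a pattern of libraries. Its highest library was DP2, SP3, IMDP2 and IMSP2 in the respective group, which are the neighbouring numbers 11 and 12 and numbers 3 and 4. Socs2 was highest in the same library as Cish in 4 of 4 groups, Socs3 and Pim2 in 3 of 4, Pim1 and Pim3 in 2 of 4, and Stat5a and Stat3 in 0 of 4. Of all tested genes, 4.02% were highest in these 4 libraries. Myc, a growth regulator and STAT5 target that was singled out after its values were seen, was lowest in the same 4 libraries, at 25.9 RPKM in DP2, 20.8 in SP3, 13.8 in IMDP2 and 22.0 RPKM in IMSP2, as were 5.87% of all tested genes. The summed neutrophil and monocyte markers were also lowest in these 4 libraries of their groups, at 69.8 RPKM in DP2, 387 in SP3, 75.4 in IMDP2 and 520 RPKM in IMSP2, beside 205 to 2647 RPKM in the other 8 libraries. The part of these markers in the pattern of Cish was not tested.

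The tested genes whose log2 values most resembled those of Cish over the 12 libraries were Adamts6, a secreted metalloprotease gene, Cdkn1c, which encodes the cell cycle inhibitor p57, and Phldb1. Pearson's r was 0.979, 0.977 and 0.967, and 0.976, 0.972 and 0.950 for deviations from the group means. Adamts6 ranged from 0.496 to 4.71 RPKM, Cdkn1c from 0.114 to 2.52 RPKM and Phldb1 from 0.483 to 2.64 RPKM. Among the members themselves, Cish correlated with Socs3 at 0.716, with Pim2 at 0.714 and with Socs2 at 0.711, and with Stat5a at 0.115, Stat3 at -0.138 and Stat5b at -0.293. For Socs2 the most alike were Plxdc2, Kcnk5 and Kif3a (r from 0.944 to 0.949), and for Pim1 Elmsan1, Proser1 and Mafk (0.877 to 0.913). The libraries share cell preparation and neighbouring numbers, so these correlations describe the libraries and were not tested.

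**Figure D4:**
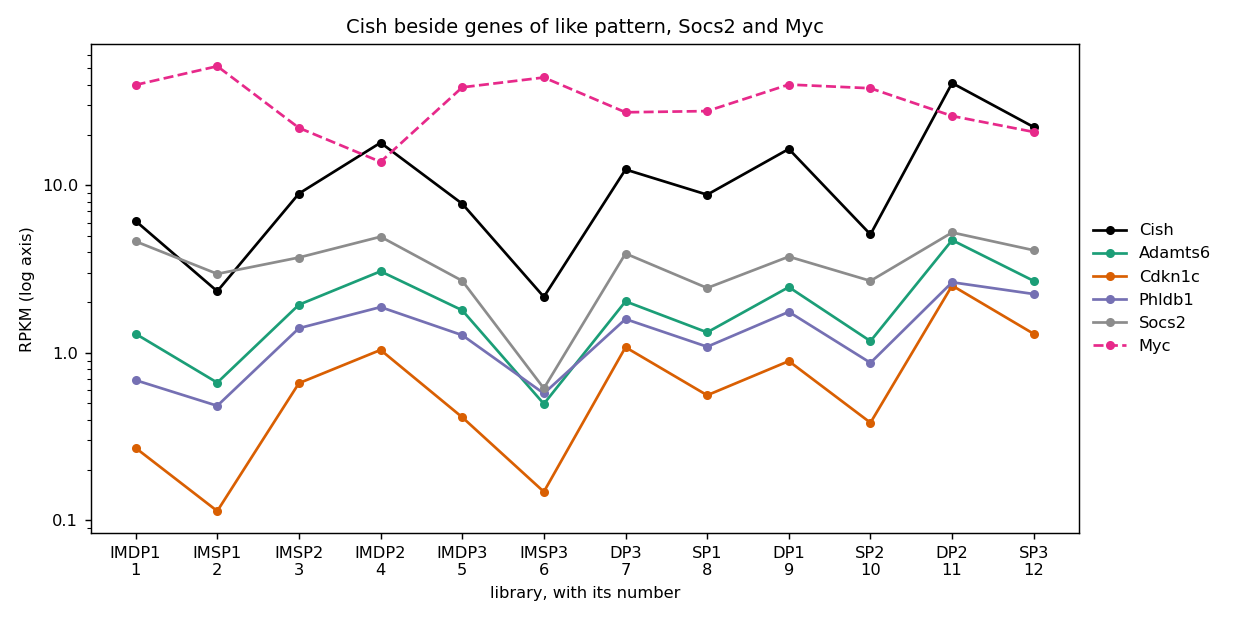
RPKM (log axis) of Cish, the 3 genes of most alike pattern (Adamts6, Cdkn1c and Phldb1), Socs2 and Myc (dashed) in the 12 libraries, ordered by library number with the group name above it. Lines only guide the eye. Cish peaks at 18.0 RPKM in IMDP2 and 40.8 RPKM in DP2, with the 3 alike genes, while Myc has its lowest value, 13.8 RPKM, in IMDP2.

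Upstream of the STAT genes, 8 of 8 genes of JAK kinases and other STATs were tested. Stat4, which transmits interleukin-12 signals, was higher in G0M+ cells by 0.61 ± 0.20 averaged over treatments (limma adjusted p = 0.0380), at 6.62 to 9.80 RPKM in IMDP beside 3.53 to 7.62 RPKM in IMSP libraries. Jak3, the kinase of the common gamma chain receptors, was higher with imatinib by 0.58 ± 0.11 (adjusted p = 0.0367, and 0.377 with pairs averaged). It stood at 15.1, 16.7 and 16.6 RPKM in IMDP and 10.6, 10.5 and 12.0 RPKM in DP libraries 1, 2 and 3, and at 11.4, 14.6 and 14.3 RPKM in IMSP and 8.59, 7.46 and 10.3 RPKM in SP libraries, with no overlap in either population. Taken singly, such ranges were seen in 4.58% of all tested genes for IMDP above DP and in 11.1% for IMSP above SP. The other 7 genes of the list did not pass for treatment. With the pairs as a block 5 of 8 were higher in G0M+ cells averaged over treatments (Stat4 and Jak3 among them), in place of 1, and the median of the list was 0.26 for population and -0.01 for treatment.

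Of 15 other SOCS genes and inhibitors, all tested, 0 were higher in G0M+ cells averaged over treatments, 1 was lower, and 0 passed for treatment. The phosphatase gene Ptpn6, whose product SHP-1 removes phosphate from JAK kinases, was lower by 0.24 (log2 fold change -0.24 ± 0.08, limma adjusted p = 0.0465). Scaled to the same median it no longer passed (-0.08, adjusted p = 0.450). With the pairs as a block 2 genes of the list were higher and 4 lower, Ptpn6 and Ptpn11 among the latter. In IMDP against IMSP cells Ptpn6 and Ptpn11, the gene of SHP-2, were lower (-0.41 ± 0.11 and -0.47 ± 0.15, adjusted p = 0.0231 and 0.0346), and neither passed after that scaling (0.403 and 0.226).

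Of 20 other STAT5 target genes, 18 were tested, and 4 were higher in G0M+ cells averaged over treatments, with 0 lower, beside 5.32% and 21% of all tested genes. Il2ra is among the 4 and passed the limit on low values largely through DP libraries. In IMDP against IMSP cells Oas2 was higher and Lyn and Ccnd3 were lower, where 25.6% of all tested genes passed in either direction. With the pairs as a block 3 were higher and 4 lower in IMDP against IMSP cells. Id2, an inhibitor of helix-loop-helix factors, was the one that passed in vehicle-treated cells without the block, at 9.94, 4.92 and 4.84 RPKM in DP beside 1.34, 1.58 and 2.10 RPKM in SP libraries (log2 fold change 1.85 ± 0.41, limma adjusted p = 0.0330). With the block 6 were higher in DP than SP cells (Oas2, Id2, Cdkn1a, Osm, Ccnd1 and Il2ra), where 4.17% of all tested genes were. Osm, a cytokine gene and direct STAT5 target, stood at 39.3, 77.7 and 19.7 RPKM in DP and 14.5, 13.5 and 30.4 RPKM in SP libraries, and at 15.7, 17.0 and 17.1 RPKM in IMDP and 5.79, 8.58 and 15.2 RPKM in IMSP libraries. Its log2 fold change averaged over treatments was 0.98 ± 0.33 (adjusted p = 0.0463). Oas2, an interferon-induced gene, differed by 1.67 ± 0.35 (adjusted p = 0.00657). Genes of this list for survival and the cell cycle, such as Mcl1, Bcl2, Ccnd2 and Myc, did not pass in that contrast. With the pairs as a block 7 were higher and 1 lower, and of these 4 genes Mcl1 passed (log2 fold change 0.28, adjusted p = 0.0229). The median of the list was 0.18.

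With imatinib, 2 of the 18 tested targets were lower and 0 higher. Il2ra, the interleukin-2 receptor alpha chain gene, stood at 6.72, 3.64 and 3.39 RPKM in DP and 1.10, 0.349 and 0.0533 RPKM in IMDP libraries 1, 2 and 3. It stood at 0.637, 0.852 and 1.02 RPKM in SP and 0.0129, 0.0993 and 0.1005 RPKM in IMSP libraries, so imatinib and vehicle ranges did not overlap in either population. All IMDP values lay below all DP values for 19% of all tested genes. The log2 fold change of Il2ra was -2.92 ± 0.45 for treatment (limma adjusted p = 0.0197, and 0.177 with pairs averaged) and 1.84 ± 0.45 for population (0.0137). The gene reached 1 RPKM only in the DP libraries, IMDP1 and SP3. It passed the limit on low values largely through libraries where it was high, so its calls are no support for a direction. Spred2, an inhibitor of the Ras and MAP kinase pathway, was lower by 0.93 (log2 fold change -0.93 ± 0.16, adjusted p = 0.0342, and 0.376 with pairs averaged), at 2.05 to 3.19 RPKM in the imatinib libraries and 3.62 to 6.47 RPKM in the vehicle libraries. The median of the list was -0.34 for treatment, beside -0.05 for all tested genes.

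Of 20 receptor chain genes 14 were tested, and Csf2rb2 (1.91 ± 0.50, limma adjusted p = 0.0177) and the common gamma chain gene Il2rg (0.56 ± 0.13, 0.0118) were higher in G0M+ cells averaged over treatments, with 0 lower and 0 passing for treatment. With the pairs as a block 4 were higher and 3 lower. In IMDP against IMSP cells the receptor gene Ifngr2 was lower and 0 were higher. With the block 1 was higher and 3 were lower in IMDP against IMSP cells. Csf2rb2, the beta chain of the interleukin-3 receptor, reached 11.2 RPKM in DP1, the library with the highest mast cell and basophil sum, and was 0.376 to 1.02 RPKM in SP libraries. Of 14 ligand genes 3 passed the limit on low values, Il6, Il4 and Lif, and they did so largely through the G0M+ libraries, so their number is no support for a direction. Il6 stood at 12.6, 4.14 and 8.06 RPKM in DP, at 0, 0.103 and 1.37 RPKM in SP, at 2.58, 4.07 and 0.207 RPKM in IMDP and at 0.150, 0.308 and 0 RPKM in IMSP libraries 1, 2 and 3. All DP values of Il6 were above all SP values, and IMDP and IMSP overlapped through IMDP3.

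**Figure D5:**
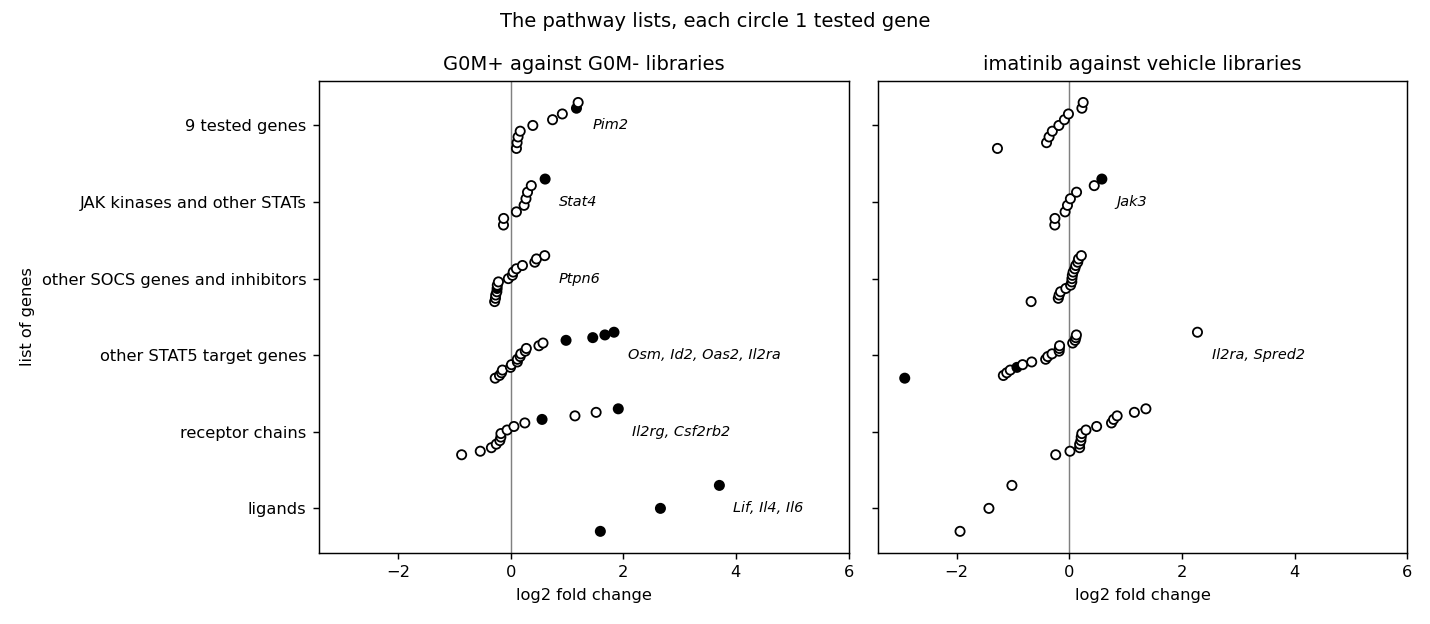
Log2 fold changes of the 9 tested members and of the tested genes of 5 pathway lists, G0M+ against G0M- libraries averaged over treatments (left) and imatinib against vehicle libraries averaged over populations (right). Each circle is a gene, filled and named where it passed the threshold (limma adjusted p under 0.05). On the right, Jak3 (0.58), Il2ra (-2.92) and Spred2 (-0.93) passed, and none did with neighbouring pairs averaged. Il2ra entered the test largely through DP libraries.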

How the data were processed

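Each library was made by random-primed cDNA synthesis from 100 cells and a Nextera XT kit. The authors mapped reads to GRCm38/mm10 and deposited 1 RPKM value for each of 48737 features and library. Their methods name CLC Genomics Workbench, normalization and edgeR, and do not say whether that normalization is part of the RPKM. Here numbered copies of a gene were summed (each member is a single feature). The low RPKM values stood on steps of single reads, which gave the read totals (whole reads for 17735 of 17735 features above 0, within 0.01 reads), and precision from reads covers counting error only. Genes that reached 1 RPKM in 3 or more libraries entered limma 3.58.1 (R 4.3.3), fitted to log2(RPKM + 0.1) by 4 group means, with a variance trend and Benjamini-Hochberg adjusted p values over 10072 genes, called under 0.05.

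Pairs were taken from the library numbers that the descriptions give (6 pairs, r from 0.43 to 0.65), whereas a shared replicate number did not make DP and SP libraries deviate together (r from -0.30 to -0.10). Alternatives changed the pseudocount, the limit on low values, the scaling, the test (voom), the copies, the block, the groups in the fit and the library left out, and, chosen after seeing the data, tested treatment on the means of neighbouring pairs. All 10 members are named, other genes of the pathway where they passed without the block or illustrate their list, and the 3 most alike genes of Cish, Socs2 and Pim1. The members, lists and tests were chosen with earlier results of these data known. Promoters are from RefSeq, figures from matplotlib 3.10.9.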

Additional observations from a re-analysis of the deposited data

How the results depend on the processing

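Of 1341 values of the 9 tested members under alternative settings, 1323 kept their direction and side of the threshold where called, 4 lost and 14 gained a call, and 0 called values reversed; 54 that were not called changed sign, in 25 of the 63 comparisons. With the pairs of neighbouring library numbers as a block, the members called were 3 in DP against SP, 4 in IMDP against IMSP and 5 averaged over treatments, in place of 0, 1 and 1. With the replicate block the numbers stayed at 0, 1 and 1, and 0 for treatment and the interaction, and no call of a member changed. Leaving out single libraries gave 0 to 2 called members in IMDP against IMSP and 1 to 3 averaged over treatments. Without IMSP2 the added members were Cish and, averaged over treatments, also Socs2, and without SP3 Cish. The pseudocount, the limit on low values, the median scaling, voom and the copies did not change the number of members called. The 4 lost calls are those of Pim2 in IMDP against IMSP cells. The treatment difference of Socs1, 0.71, had a p of 0.1 with each neighbouring pair averaged, an alternative chosen after seeing the data, under which 0 members passed for treatment. Depth limits Socs1, at 3 to 27 reads. With 3 libraries a group, a member that did not pass is not shown to be unchanged.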
